A study of Mus musculus with 4 samples.

Results

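Proteasome genes are described here in the tibialis anterior (TA) muscle, a hindlimb muscle, of old and young mice. They were taken as all gene symbols beginning with Psma, Psmb, Psmc, Psmd, Psme, Psmf or Psmg that had a value in every sample, and 44 of 20340 gene labels met this rule. RefSeq holds 51 protein-coding mouse genes with these prefixes. The 7 without a value in every sample were Psma1, Psma4, Psmb10, Psmd7, Psmd10, Psme2b and Psme3ip1, which are not analysed here. The deposited values ended within chromosome 7 (Old 1 and Young 2) or 8 (Old 2 and Young 1), in text order. Psma1 lies on chromosome 7, Psmb10, Psmd7 and Psme3ip1 on 8, Psma4 on 9 and Psmd10 on X. Their missing values therefore say nothing about expression. Psme2b lies on chromosome 11, before that end. Psmc3ip was matched by its prefix only, as it encodes a recombination factor and not a proteasome protein. mRNA-seq was performed on muscle of C57BL/6 wild-type mice aged 20 months (Old 1 and Old 2) or 3 months (Young 1 and Young 2), and neither age carried a further allele or treatment. The comparison asks which transcripts differ in abundance in TA muscle with age.

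The proteasome is the protease complex that degrades ubiquitinated proteins, and it carries much of the protein breakdown in wasting muscle. Its 20S core is a barrel of outer alpha rings, which gate the entry, and inner beta rings, which hold the protease sites. The 19S particle caps the core, binds ubiquitin chains through its base and lid, and unfolds substrates with its ring of ATPases. Interferon induces the immunoproteasome, in which Psmb8, Psmb9 and Psmb10 take the places of the protease subunits Psmb5, Psmb6 and Psmb7, and the PA28 activator made of Psme1 and Psme2.

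Values were FPKM, fragments per kilobase of transcript, set relative to all mapped fragments, which give a level per length and allow genes to be compared within a sample. A common factor separated the samples of each age. Over the 40 proteasome genes above 0 in all samples, Old 1 was 1.91 to 5.16 times Old 2 (median 1.98) and Young 2 was 1.66 to 6.08 times Young 1 (median 1.92). Each sample was therefore divided by its median ratio to the geometric mean of the 4 samples, and such values are called scaled FPKM. All 44 loci overlap the RefSeq gene of their symbol on GRCm38, but those of Psma3, Psma6, Psmc3ip, Psmd4 and Psme1 are more than 1.5 times as long as the gene, and their values are uncertain. The factor was not the same for every gene, and across genes its size in the Old samples followed its size in the Young samples (Pearson's r = 0.913, across genes, which are not independent replicates). Over 2447 genes of at least 10 FPKM in every sample, the log2 ratio of Old 1 to Old 2 had a robust SD of 0.05 and that of Young 2 to Young 1 of 0.06, against 0.38 for Old 1 to Young 2 and 0.37 for Old 2 to Young 1. The read depth is unknown, so whether samples of one age differed by more than sampling noise could not be tested. If each age was 1 library, there is no replicate check. The study describes its mRNA-seq experiments as independent and its groups as made of several mice, but the labels do not tie a sample to an animal, so p-values measure only the spread between these samples, which may be technical.

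The muscle markers Mb, Actn3, Pygm and Mybpc2 lay between 469.7 and 6169.9 FPKM in every sample, whereas Ckm was listed at 0 in all samples and Tnnt3 in both Old samples. Actn2 lay between 113.4 and 527.2 FPKM. Of the 6 tested muscle markers, Actn2 (log2 difference -1.03, limma adjusted p = 0.025) and Tnnt3 were called lower in Old. The call of Tnnt3 rests on its listed 0 values, against 4465 and 7509 FPKM in the Young samples. With Ckm at 0 in all samples, such a 0 cannot be read as absence. All 5 slow fiber markers with a value were called higher in Old, with a median log2 difference of 3.69, and their summed scaled FPKM was 798 and 619 in the Old and 40.6 and 49.6 in the Young samples. The part of this shift in the differences below was not tested.

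Promoters are shown for 5 members chosen from the differences between ages given below. Of these only Psmd8 was called with the scaling over all genes, and Psme2, the other gene called, is not shown. Psmc1 and Psmd8 had the highest log2 differences of the base and the lid, and Psmb6 the lowest of the beta subunits that could be read. Psme1 and Psmb8 stand for the opposite sides of the immunoproteasome. Each window runs from 250 bases before to 50 bases after the RefSeq transcript start on GRCm38.p6, printed 5′ to 3′ on the strand of the gene. Psmc1 is at chr12:100109952-100110251 (plus strand), upstream of where its locus in the files begins, and Psmd8 at chr7:29180624-29180923 (minus strand). Psmb6 is at chr11:70525107-70525406, Psme1 at chr14:55578244-55578543 and Psmb8 at chr17:34197945-34198244, all on the plus strand. Capitals mark matches to 5 motifs: TGACNNNGC (core of the antioxidant response element bound by Nfe2l1 and Nfe2l2), CCAAT (bound by NF-Y), TTCNNNGAA (STAT type), GAAA followed by any 2 bases and a further GAAA (interferon response type) and TGTTTAC (forkhead type). Both strands were searched, and matches of different motifs may share bases, which none of those printed do.
Psmc1: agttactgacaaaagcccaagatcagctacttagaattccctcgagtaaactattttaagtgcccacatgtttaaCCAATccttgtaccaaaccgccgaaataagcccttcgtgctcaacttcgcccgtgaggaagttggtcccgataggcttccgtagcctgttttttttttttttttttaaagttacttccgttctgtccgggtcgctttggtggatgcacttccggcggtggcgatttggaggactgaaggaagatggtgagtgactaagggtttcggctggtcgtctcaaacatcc
Psmd8: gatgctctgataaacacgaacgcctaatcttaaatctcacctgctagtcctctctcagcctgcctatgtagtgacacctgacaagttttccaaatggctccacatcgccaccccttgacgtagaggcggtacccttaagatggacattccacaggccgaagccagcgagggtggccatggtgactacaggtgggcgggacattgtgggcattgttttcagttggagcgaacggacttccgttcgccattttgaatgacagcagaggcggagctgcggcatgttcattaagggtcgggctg
Psmb6: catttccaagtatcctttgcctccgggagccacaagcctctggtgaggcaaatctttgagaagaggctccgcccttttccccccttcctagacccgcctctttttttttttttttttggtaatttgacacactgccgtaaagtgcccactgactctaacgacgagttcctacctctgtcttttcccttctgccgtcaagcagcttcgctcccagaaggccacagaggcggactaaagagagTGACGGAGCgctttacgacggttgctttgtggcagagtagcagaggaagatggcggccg
Psme1: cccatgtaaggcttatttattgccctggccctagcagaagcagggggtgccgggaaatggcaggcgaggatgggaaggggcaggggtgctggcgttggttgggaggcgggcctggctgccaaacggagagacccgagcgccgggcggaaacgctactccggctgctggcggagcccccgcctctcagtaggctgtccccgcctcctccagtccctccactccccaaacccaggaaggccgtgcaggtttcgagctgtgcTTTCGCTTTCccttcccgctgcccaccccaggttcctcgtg
Psmb8: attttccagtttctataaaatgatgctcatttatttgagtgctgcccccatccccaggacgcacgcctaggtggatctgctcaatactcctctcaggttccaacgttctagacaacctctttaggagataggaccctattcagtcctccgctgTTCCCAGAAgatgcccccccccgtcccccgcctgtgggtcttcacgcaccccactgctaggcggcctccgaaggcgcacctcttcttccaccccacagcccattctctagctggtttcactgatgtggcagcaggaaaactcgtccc

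The CCAAT match of Psmc1 begins 175 bases before the start. The TGACGGAGC match of Psmb6 begins 9 bases before the start, and the TTCCCAGAA match of Psmb8 97 bases before it. The TTTCGCTTTC match of Psme1 lies on the other strand and begins at base 10 from the start. Psmd8 held none of the 5 motifs in this window.

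Of the 44 members, 37 were matched to a RefSeq promoter by symbol. TGACNNNGC was in 6 of 37 (16.2%), against 13.99% of 27025 genes. The 6 were Psmb5, Psmb6, Psmc6, Psmd9, Psmd12 and Psme4, and in the beta ring 2 of 4 matched promoters had it. CCAAT was in 13 (35.1%, against 41.1%) and TTCNNNGAA in 3 (8.11%, against 9.55%). TGTTTAC was in 0 (against 4.05%). The interferon response type was in 5 (13.5%, against 3.99%), which were Psmb3, Psmd4, Psmd9, Psmg4 and Psme1. Psmb8, Psmb9 and Psme2 held none, so 1 of the 4 immunoproteasome genes had it. By class, CCAAT was in 4 of 5 promoters of the alpha ring, 1 of 4 of the beta ring, 3 of 8 of the base, 1 of 6 of the lid, 1 of 2 of the immunoproteasome beta subunits, 0 of 2 of PA28, and 0 of 3 and 0 of 2 of the chaperones of the core and the base. These counts describe letters in the windows and do not show binding.

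The core and cap subunits were among the abundant transcripts of the muscle. Psmb7, the trypsin-like protease subunit, ranked first among the 40 genes in every sample at 420.3 and 212 FPKM in the Old and 193 and 376 FPKM in the Young samples, followed by Psmb4 and Psmb3 in every sample. Psmb8 and Psmb9 ranked 39 and 40 in every sample. Psmf1, which encodes the inhibitor PI31, ranked 38. The chaperones that help to assemble the complex (Psmg1 to Psmg4, Psmd5 and Psmd9) lay between 4.07 and 29.4 FPKM. The tissue-specific subunits of testis (Psma8) and thymus (Psmb11) were listed at 0 in 3 of 4 samples each and at 0.0649 and 0.0400 FPKM in the other, and were not tested.

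**Figure D1:**
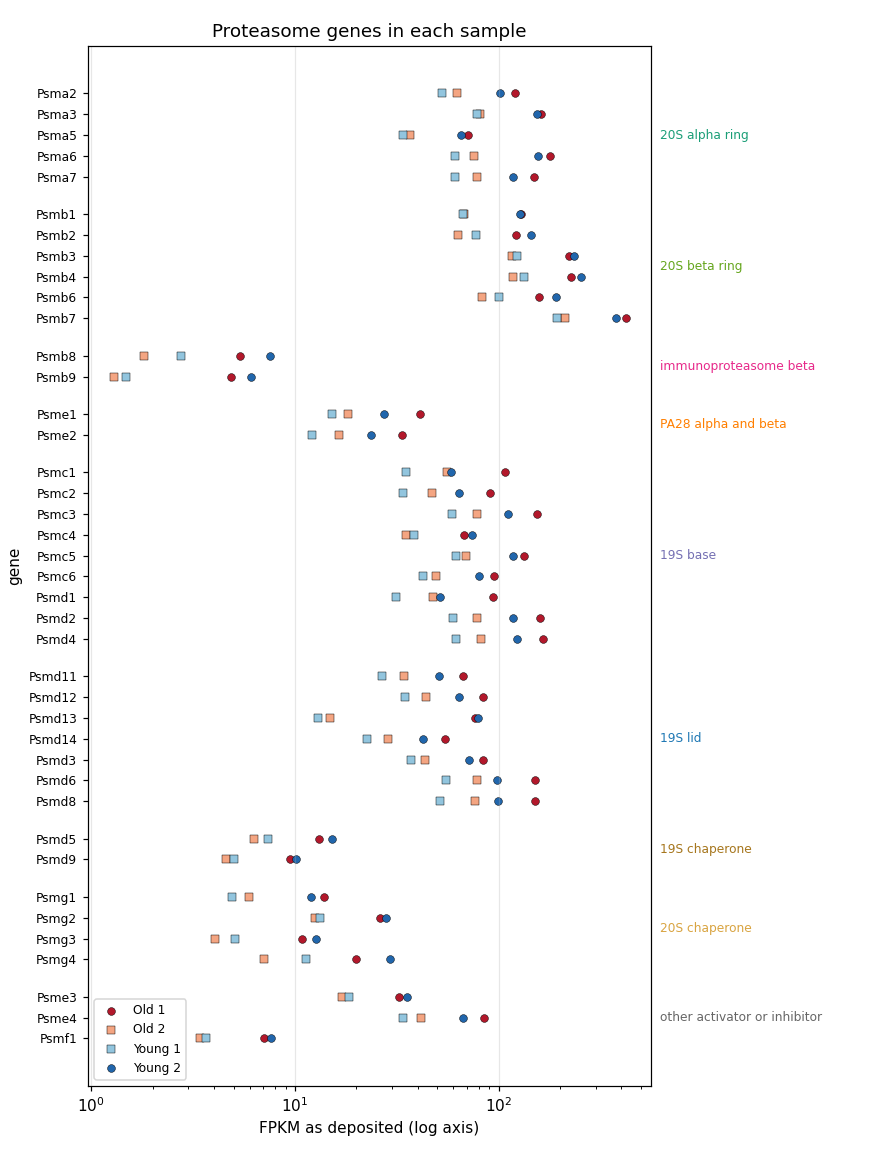
Deposited FPKM (log axis) of the 40 proteasome genes above 0 in all samples, by class, with 1 point for each sample. Old 1 and Young 2 (circles) lie above Old 2 and Young 1 (squares) for each gene, and Psmb8 and Psmb9 have the lowest levels.

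Differences between ages were tested with limma on log2(scaled FPKM + 1) over 10266 genes, with Benjamini-Hochberg adjustment over all of them and a threshold of 0.05, and 42 proteasome genes entered the test. A log2 difference on this scale understates the change of genes with few FPKM. 2 proteasome genes were called higher in Old (Psmd8 and Psme2) and 0 lower, where 5.61% of all tested genes were called higher and 7.94% lower. 15 were higher and 2 lower where the p under 0.05 was taken without adjustment, against 16.2% and 17.7% of all tested genes. Neither call held when any 1 sample was left out. With scale factors from genes of at least 10 FPKM, the range in which most proteasome genes lie, 16 were called higher and 2 lower, against 14.2% and 14.8% of all tested genes. The median log2 difference was 0.17 over the 42 genes and -0.01 over all tested genes. Both Old samples lay above both Young samples for 22 of the 42 genes after scaling and below them for 8, and the ages overlapped for 12. Over all tested genes the shares were 27.8% above and 28.4% below. None of the 42 reached a difference of 1.5-fold between every Old and every Young sample in either direction (0 and 0), which 3.78% of all genes did upwards and 5.13% downwards.

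The samples with the higher values (Old 1 and Young 2) and those with the lower values (Old 2 and Young 1) were also taken as crossed pairs. This pairing was known from the values and not from the labels. With the pairs as a block in limma, 23 proteasome genes were called higher in Old and 12 lower at an adjusted p under 0.05, against 31.6% and 34.1% of all tested genes. The median SE of the 40 genes went from 0.10 to 0.01 on the log2 scale under this block. The size of each difference was the same in both fits. Psmd8 and Psme2 were also called under the block, which is no separate check because the pairs were taken from the same values.

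**Figure D2:**
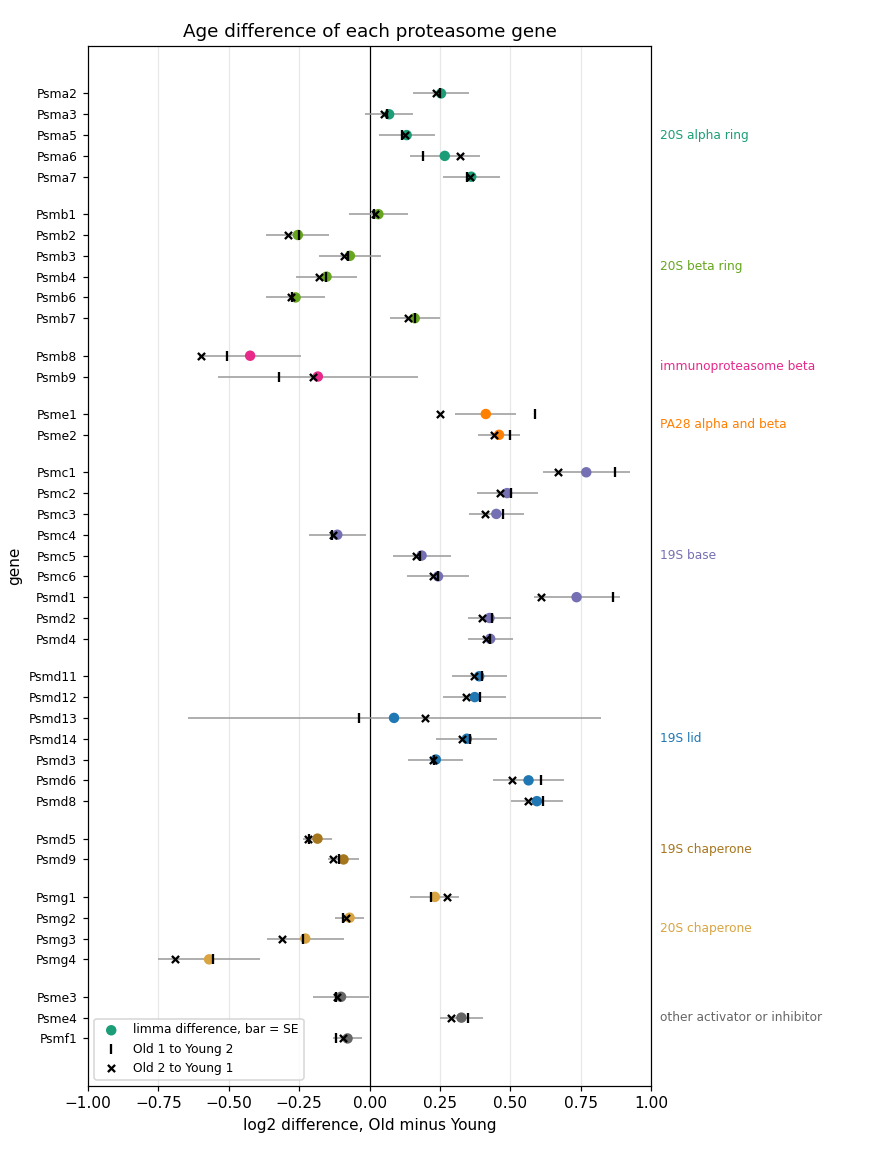
Log2 difference between Old and Young for the 40 proteasome genes above 0 in all samples, as fitted by limma on scaled FPKM (circles, bars are 1 SE) and as the log2 ratio of deposited FPKM in each crossed pair (ticks and crosses). The 19S base and lid lie mostly to the right of 0, from -0.11 for Psmc4 to 0.77 for Psmc1, and the 20S beta ring lies on both sides of 0.

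The largest class was the 19S particle. Its 16 subunits with a value (6 ATPases, 3 other base subunits and 7 lid subunits) had a median log2 difference of 0.41, and 15 of the 16 differences were positive. 14 of them had both Old samples above both Young samples after scaling, against 27.8% of all tested genes. Of the 16, 1 was called higher with the scaling over all genes, which is near the 5.61% of all tested genes. With the 10-FPKM scaling 12 were called higher, against 14.2% of all tested genes. With either scaling 0 were called lower, against 7.94% and 14.8%.

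Psmd8, a subunit of the lid, stood at 104 and 112 scaled FPKM in the Old samples and 75.0 and 67.3 in the Young samples, so that the ages did not overlap. It rose by 0.59 in Old on the log2 scale (SE 0.09, limma adjusted p = 0.045). Psmc1, an ATPase of the base whose promoter window holds CCAAT, had the highest difference of all members, at 73.3 and 82.0 scaled FPKM in the Old and 50.9 and 39.9 in the Young samples. Its log2 difference was 0.77 (SE 0.16), which did not pass the test (limma adjusted p = 0.064) and passed it with the 10-FPKM scaling (adjusted p = 0.023). Psmd1, the large scaffold subunit of the base, showed the same order of samples, at 64.5 and 70.0 scaled FPKM in Old and 45.3 and 35.2 in Young. Its difference was 0.73 (SE 0.15, limma adjusted p = 0.067, and 0.025 with the 10-FPKM scaling). Young 2 was 1.67 and 1.66 times Young 1 for Psmc1 and Psmd1, the lowest such factors among the 40 genes.

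The only ATPase with a negative value was Psmc4, at 46.1 and 51.9 scaled FPKM in Old and 56.0 and 50.3 in Young, where the ages overlapped. Its log2 difference was -0.11 (SE 0.10, limma adjusted p = 0.557, and 0.206 with the 10-FPKM scaling). Apart from Psmc1 and Psmc4, the ATPases lay between 0.18 (Psmc5) and 0.49 (Psmc2). Among the ubiquitin-handling subunits, the receptor Psmd4 differed by 0.43 and the deubiquitinase Psmd14 by 0.35, with limma adjusted p of 0.057 and 0.130 (0.008 and 0.028 with the 10-FPKM scaling). In the lid, Psmd13 could not be placed. Its deposited FPKM was 76.9 and 14.9 in the Old samples and 13.0 and 79.0 in the Young samples, so that its factor between samples of one age (5.16 and 6.08) was the highest of the 40 genes, and its log2 difference was 0.09 with an SE of 0.73. The other lid subunits were between 0.24 (Psmd3) and 0.59.

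In the 20S core, the 5 alpha subunits with a value all had positive differences, with a median of 0.25. None was called with the scaling over all genes, and Psma2 and Psma7 were called with the 10-FPKM scaling. Psma7 had the highest, at 102 and 115 scaled FPKM in Old and 88.6 and 80.2 in Young, a log2 difference of 0.36 (SE 0.10, limma adjusted p = 0.106, and 0.019 with the 10-FPKM scaling). Psma3 had the lowest, at 109.9 and 119 in Old and 114 and 105 in Young. Its difference was 0.07 (SE 0.09, limma adjusted p = 0.707, and 0.177 with the 10-FPKM scaling). Psma1 had a value only in Old 2 (42.8 FPKM) and Young 1 (43.3 FPKM).

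Of the 6 constitutive beta subunits that could be read (all but Psmb5), 2 had a positive and 4 a negative difference, and none was called with the scaling over all genes. Their median of -0.11 was -0.029 without Old 1, -0.025 without Young 1, -0.19 without Old 2 and -0.20 without Young 2, so its size is not fixed by these samples. Psmb6, the caspase-like protease subunit, stood at 108 and 122 scaled FPKM in Old and 146 and 131 in Young, with no overlap. It was lower in Old by a log2 of -0.26 (SE 0.10), which missed the threshold (limma adjusted p = 0.198) and passed it with the 10-FPKM scaling (adjusted p = 0.041). Psmb7 was the highest of the ring, at 287 and 311 scaled FPKM in Old and 279.7 and 256 in Young. Its difference was 0.16 (SE 0.09, limma adjusted p = 0.334, and 0.056 with the 10-FPKM scaling). Psmb5, the chymotrypsin-like protease subunit, shares its row with the microRNA Mir686, and its value was 572 FPKM in Old 1 and 6399 in Young 2 but listed at 0 in Old 2 and Young 1. No level of Psmb5 can be read from these values, and its log2 difference of -1.74 had an SE of 5.70.

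Class medians were also read in each crossed pair. The median log2 ratio of deposited FPKM for the 19S subunits was 0.41 in Old 1 to Young 2 and 0.38 in Old 2 to Young 1. It was 0.19 and 0.24 for the alpha ring, and -0.12 and -0.14 for the beta ring without Psmb5. For the PA28 subunits it was 0.54 and 0.34, and for the immunoproteasome beta subunits -0.41 and -0.40. Over all tested genes above 0 the medians were -0.01 and -0.02.

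**Figure D3:**
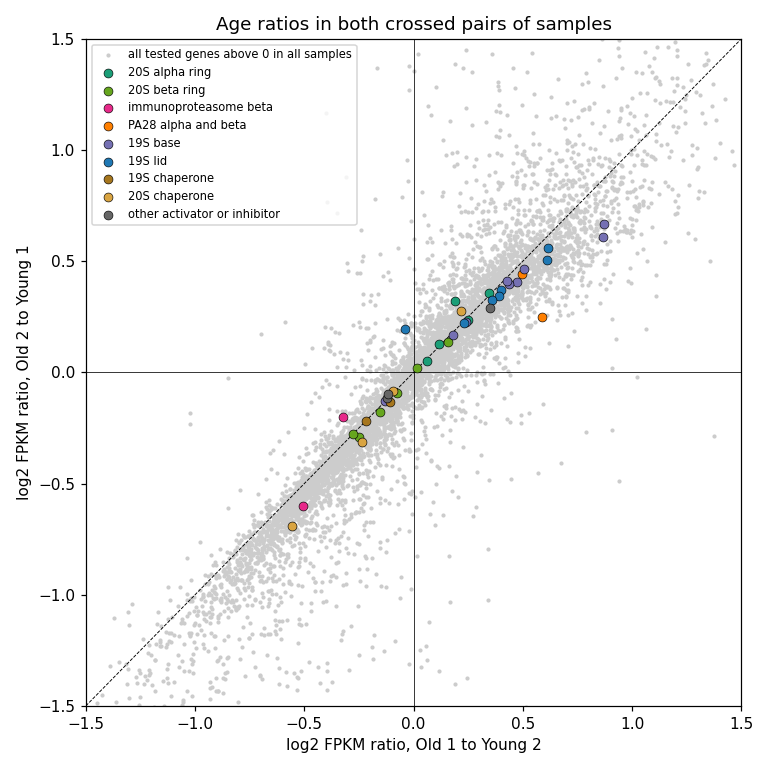
Log2 ratio of deposited FPKM in Old 1 to Young 2 (x axis) against Old 2 to Young 1 (y axis), with proteasome genes coloured by class and all tested genes above 0 in all samples in grey. Of the 40 proteasome genes, 25 lie above 0 in both pairs and 14 below 0 in both, and Psmd13 lies above 0 in one pair only. Of the 9293 tested genes above 0 in all samples, 4228 lie above 0 in both pairs and 4514 below 0 in both. Most genes thus have the same sign in both pairs.

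A ratio of genes within 1 sample is free of a factor that all genes of the sample share. The median FPKM of 15 19S subunits (without Psmd13) was 0.497 and 0.499 times that of the 6 beta subunits in Old 1 and Old 2, and 0.344 and 0.347 times in Young 1 and Young 2. Against the 11 alpha and beta subunits together, it was 0.595 and 0.633 times in the Old and 0.499 and 0.480 times in the Young samples. The log2 age difference was 0.53 for the ratio to the beta subunits and 0.33 for the ratio to both rings. The median of the 5 alpha subunits was 0.788 and 0.766 times the beta median in the Old and 0.544 and 0.554 times in the Young samples. In Old 2 and Young 1 this alpha median was the value of Psma6 (76.0 and 60.8 FPKM), which is uncertain because of its long locus. The log2 age difference of the alpha to beta ratio was 0.50, while the class medians of the single-gene differences were 0.25 and -0.11. Within each age the ratios to the beta median lay close together and the ratio to both rings less so. For each measure the Old values were above the Young values. These class ratios were chosen after the values were seen, and they are given without a test.

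**Figure D4:**
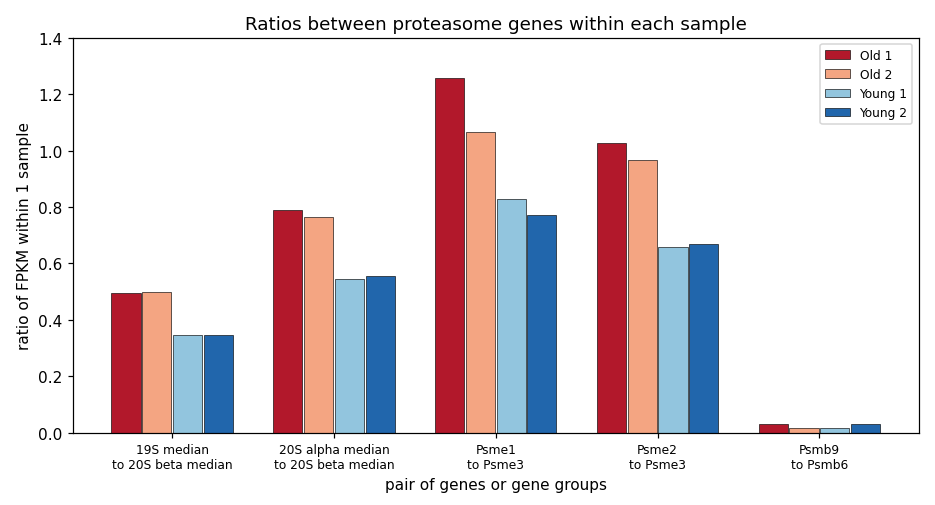
Ratio of FPKM between classes or genes within each of the 4 samples, as bars from 0 without error bars because each bar is 1 sample. In the first 4 ratios both Old bars stand above both Young bars. The ratio of Psmb9 to Psmb6 is higher in Old 1 and Young 2 than in Old 2 and Young 1 and does not follow age.

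The members of the immunoproteasome went in 2 directions. The interferon-inducible beta subunits Psmb8 and Psmb9 had negative differences and the PA28 subunits Psme1 and Psme2 positive ones, so the class median of 0.11 describes neither. In bulk muscle, fewer cells of a type and less RNA per cell cannot be told apart.

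Psme2 rose in Old by 0.46 on the log2 scale (SE 0.07, limma adjusted p = 0.047). Its scaled FPKM was 22.9 and 24.2 in Old and 17.6 and 16.1 in Young, without overlap. Psme1, its partner in the activator ring, stood at 28.0 and 26.7 in Old and 22.2 and 18.6 in Young, also without overlap. The difference of 0.41 (SE 0.11) did not pass the test (limma adjusted p = 0.097, and 0.053 with the 10-FPKM scaling). Psme3 forms the nuclear PA28 gamma ring and is not part of the immunoproteasome. It had 22.2 and 25.0 scaled FPKM in Old and 26.8 and 24.1 in Young, which overlap. Its difference was -0.10 (SE 0.10, limma adjusted p = 0.602, and 0.256 with the 10-FPKM scaling). The ratio of Psme1 to Psme3 within a sample was 1.26 and 1.07 in Old and 0.827 and 0.771 in Young. That of Psme2 to Psme3 was 1.03 and 0.968 in Old and 0.657 and 0.670 in Young. Neither ratio overlapped between ages, and for each the two-sided exact permutation p was 0.33, the smallest that 2 samples against 2 allow.

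Psmb8, which replaces Psmb5, stood at 3.65 and 2.67 scaled FPKM in Old and 3.998 and 5.16 in Young, without overlap. Its log2 difference was -0.42 (SE 0.18, limma adjusted p = 0.225, and 0.303 with the 10-FPKM scaling). Psmb9, which replaces Psmb6, had 3.32 and 1.89 scaled FPKM in Old and 2.15 and 4.12 in Young. The spread within each age was larger than the difference of -0.18 (SE 0.35, limma adjusted p = 0.852, and 0.885 with the 10-FPKM scaling). Psmb9 amounted to 3.06% and 1.55% of Psmb6 in Old 1 and Old 2 and to 1.47% and 3.15% in Young 1 and Young 2 (exact permutation p = 1). The ratio was higher in Old 1 and Young 2, the samples with the higher values, and the values of the ages interleaved. The factor between samples of one age was 3.77 (Old) and 4.10 (Young) for Psmb9 and 1.91 in both ages for Psmb6, so it did not cancel. The ratios of Psmb8 to Psmb5 and of Psmb10 to Psmb7 could not be computed. The 8 tested leukocyte markers of 18 listed all had negative differences, with a median of -0.38 and 1 called lower (Lyz2). Their list, summed over the 15 with a value, stood at 27.7 and 18.8 scaled FPKM in Old and 28.5 and 37.9 in Young. Of the markers under the filter, Ptprc, Ms4a1, Cd4, Cd8a and Cd79a were highest in Old 1, at 0.105 FPKM for Ms4a1, 0.150 for Cd4, 0.087 for Cd8a, 0.509 for the pan-leukocyte marker Ptprc and 0.686 for the B cell marker Cd79a. Ms4a1 and Cd8a were at 0 in the other samples. Emr1 and Itgam, also under the filter, were instead highest in Young 2, at 0.558 and 0.382 FPKM. In Old 1 these markers stood at 0.401 and 0.326 FPKM. The part of leukocytes in the values of Psmb8 and Psmb9 was not tested.

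Of 15 genes of interferon response and antigen presentation, 10 had a value, 9 were tested and 0 were called in either direction, with a median log2 difference of 0.05. The highest were Ifit3 at 0.31 (limma adjusted p = 0.439) and H2-K1, a class I antigen-presenting molecule, at 0.27 (adjusted p = 0.121). The lowest were Isg15 at -0.42 (adjusted p = 0.650) and Tap2, a subunit of the peptide transporter, at -0.30 (adjusted p = 0.076). With the 10-FPKM scaling, 1 of the 9 was called higher (H2-K1) and 0 lower, against 14.2% and 14.8% of all tested genes.

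Among the other regulators, Psme4, which encodes the activator PA200, stood at 58.0 and 61.1 scaled FPKM in Old and 49.4 and 45.3 in Young, without overlap. Its log2 difference was 0.33 (SE 0.08), which did not pass the test (limma adjusted p = 0.080) and passed it with the 10-FPKM scaling (adjusted p = 0.010). Psmf1 differed by -0.08 (SE 0.05, limma adjusted p = 0.405, and 0.374 with the 10-FPKM scaling).

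Most assembly chaperones had negative differences. Of the 6 tested chaperones of the core (Psmg1 to Psmg4) and of the base (Psmd5 and Psmd9), 5 had a negative difference, the median was -0.14, and none was called with the scaling over all genes. Psmg4 had the lowest log2 difference of the members other than Psmb5. It stood at 13.7 and 10.3 scaled FPKM in Old and 16.5 and 20.0 in Young, without overlap. Its log2 difference was -0.57 (SE 0.18, limma adjusted p = 0.135, and 0.191 with the 10-FPKM scaling). Psmd5 stood at 8.94 and 9.28 in Old and 10.7 and 10.3 in Young, a difference of -0.19 (SE 0.05, limma adjusted p = 0.108, and 0.043 with the 10-FPKM scaling). The exception was Psmg1, at 9.49 and 8.76 scaled FPKM in Old and 7.14 and 8.12 in Young. Its difference was 0.23 (SE 0.09, limma adjusted p = 0.181, and 0.293 with the 10-FPKM scaling).

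Genes that work with the proteasome but carry other symbols were also counted. Of 26 listed partners (ubiquitin receptors and shuttles, deubiquitinases, the chaperone Pomp, the p97 machinery and the transcription factors Nfe2l1 and Nfe2l2), 22 had a value and 0 were called in either direction, with a median of 0.10. The highest were Uchl5, a deubiquitinase of the 19S particle, at 0.36 (SE 0.07, limma adjusted p = 0.063), and Akirin2, an import factor for proteasomes, at 0.31 (SE 0.32, limma adjusted p = 0.630). The lowest were Zfand2a and Zfand5, which bind the 19S particle, at -0.23 (SE 0.05, limma adjusted p = 0.071) and -0.20 (SE 0.08, limma adjusted p = 0.186). With the 10-FPKM scaling, 4 of the 22 partners were called higher and 2 lower, against 14.2% and 14.8% of all tested genes.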

How the data were processed

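mRNA-seq of muscle was analysed in 4 samples, 2 for each age, grouped by the sample labels. The authors trimmed reads, removed PCR duplicates with in-house programs, aligned to mm10 with TopHat2 2.0.10 guided by RefSeq genes (at most 2 mismatches) and ran Cufflinks on each sample. The deposited values are FPKM per locus, which hold no counts. The authors called genes with Cuffdiff 2.1.1, which was not repeated. Of each sample, 1 incomplete line was left out, and values ended within chromosome 7 or 8 in text order. Loci present in every sample (20605) were used, and rows of one symbol were summed.

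Scale factors came from 7228 genes of at least 1 FPKM in every sample (1.46, 0.680, 0.689 and 1.47 for Old 1, Old 2, Young 1 and Young 2). log2(scaled FPKM + 1) was fitted with limma 3.58.1 in R 4.3.3 (trend, two-sided, Benjamini-Hochberg) over genes of at least 1 FPKM in at least 2 samples. This was tested on simulated data with the same factor for every gene of a sample and noise drawn independently for each sample. The simulation does not cover factors that differ between genes, or samples of one age that share a library. The alternatives were other scalings, a pseudocount of 0.1, other filters and row choices, no trend, the replicate number as a block, crossed pairs, and each sample left out.

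The members, gene lists, motifs and tests were chosen with earlier results of these data known. All members may be named. Sample values are given for the immunoproteasome and its counterparts and for the highest and lowest of each class. Those of Psmd8 were added because it was called. Of other lists the 2 highest and 2 lowest are named. The fibroblast, endothelial and adipocyte markers had median log2 differences of -0.17, -0.09 and 0.25, with 0 of 5 called higher in each and 2, 0 and 0 called lower. The skeletal muscle list had a median of -0.31 with 2 of 6 called lower, Actn2 and Tnnt3, the latter on values listed at 0 in Old. Sequences are from RefSeq. Ratios and tables were computed in Python 3.11.15 with scipy 1.17.1, numpy 2.4.6 and pandas 2.3.3, and plots with matplotlib 3.10.9.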

Additional observations from a re-analysis of the deposited data

How the results depend on the processing

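The calls depended on the scaling. The proteasome genes called higher in Old were 2 in the reported fit, 16 with scale factors from genes of at least 10 FPKM, 17 with cyclic loess, 12 with a filter of 1 FPKM in all samples and 23 under the crossed block. They were 0 with values as deposited, quantile normalization, no filter or no trend, and 0 to 0 when each sample was left out. Those called lower were 2 with the 10-FPKM scaling and 12 under the crossed block. Over all genes, 576 were called higher and 815 lower. The counts were 18 and 13 as deposited, 1454 and 1516 with the 10-FPKM scaling, 119 and 188 with quantile normalization, 1135 and 1395 with cyclic loess, 114 and 202 without a filter, 1222 and 1302 with the filter in all samples, 103 and 181 without the trend, and 3242 and 3503 under the crossed block. With each sample left out they ranged from 0 to 259 higher and from 2 to 339 lower. With the replicate block of the labels' numbers, 0 proteasome genes were called, and 24 genes were called higher and 21 lower. Deviations of same-numbered samples correlated at -0.903 over genes, so the numbers were not taken to pair the samples. The cause of these shifts was not tested.

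The class medians lay on the same side of 0 under each other scaling, filter, pseudocount and block. With 1 sample left out, the immunoproteasome median ran from -0.047 (without Old 1) to 0.26, and that of the 19S non-ATPases from 0.34 to 0.47. The log2 age difference of the ratio of Psmb9 to Psmb6 ran from -0.53 to 0.57. Single genes changed sign when a sample was left out. The ranges were -0.054 to 0.12 for Psmb1, -0.16 to 0.017 for Psmb3, -7.78 to 4.31 for Psmb5, -0.54 to 0.17 for Psmb9, -0.78 to 0.83 for Psmc3ip and -0.64 to 0.82 for Psmd13. Psmc3ip was also -0.57 with a pseudocount of 0.1. Psmd8 and Psme2 missed the threshold with any 1 sample left out, at log2 differences of 0.52 to 0.67 and 0.40 to 0.52.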
